A study of Homo sapiens with 12 samples.

Results

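The genes described here encode enzymes and membrane proteins of the lysosome. They comprise cathepsins and other proteases, glycosidases, sulfatases, lipid enzymes and carriers, membrane proteins, proton pump subunits, and the transcription factors TFEB and TFE3. They were taken from a fixed list of 39 symbols, matched by Ensembl identifier to the 63677 genes of the count tables, and all 39 were found. The cells were SET-2, a human leukemia line of myeloid origin in established use, and RNA was measured in 3 libraries for each of 4 groups. The groups were insR cells given 250 nM GSK-LSD1, insR cells given 0.1% (v/v) DMSO, WT cells given 250 nM GSK-LSD1 and WT cells given 0.1% (v/v) DMSO, each for 48 h. WT cells have wild-type LSD1, the histone demethylase encoded by KDM1A, and GSK-LSD1 is an irreversible LSD1 inhibitor. The insR cells carry the LSD1 variant Leu659_Asn660insArg and are called drug-resistant in the labels, which do not say whether they derive from 1 clone. The labels do not call the replicates separate cultures. The p-values therefore measure only how far these libraries spread, and that spread may be technical.

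Lysosomes are acidic organelles in which proteases, glycosidases, sulfatases and lipases break down material delivered by endocytosis and autophagy. The vacuolar proton pump acidifies the lumen, and inherited loss of many of these enzymes causes a storage disease named for what accumulates. TFEB and TFE3 are related transcription factors that bind the CLEAR element, whose centre reads TCACGTGA, and raise transcription of many lysosomal genes when they enter the nucleus.

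Promoter sequence of 250 bases before to 50 after the start was matched in RefSeq (GRCh38.p14) for 28 of the 39 genes. The palindrome TCACGTGA, searched on both strands, was in 4 of these 28 windows (14.3%), against 283 of 27305 windows of all genes (1.04%). The 4 are shown from 20 bases before the first TCACGTGA to the base just before the annotated start, 5′ to 3′ on the gene's strand, with the palindrome in capitals, since TFEB and TFE3 are themselves in the list. They belong to CTSA (chr20:45891289-45891334, plus strand), GAA (chr17:80101484-80101580, plus strand), MCOLN1 (chr19:7522562-7522623, plus strand) and ATP6V0D1 (chr16:67481158-67481237, minus strand). GAA and MCOLN1 each hold 2 copies.
CTSA: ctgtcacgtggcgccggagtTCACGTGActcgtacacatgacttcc
GAA: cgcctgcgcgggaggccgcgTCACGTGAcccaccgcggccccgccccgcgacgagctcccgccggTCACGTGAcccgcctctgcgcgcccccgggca
MCOLN1: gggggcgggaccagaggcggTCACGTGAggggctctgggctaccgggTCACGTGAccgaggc
ATP6V0D1: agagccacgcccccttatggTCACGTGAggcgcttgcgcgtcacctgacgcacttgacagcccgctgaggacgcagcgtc

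The shorter core CACGTG, which lies within TCACGTGA, was in 7 of the 28 windows (25%), against 7.43% of all windows. The 3 genes with the core alone were CTSD, NEU1 and CD63. A match describes these letters and is not evidence that a factor binds there.

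Levels are in CPM, the reads of a gene relative to all reads in genes that passed a filter on low counts, on TMM-scaled library sizes. The libraries were made from transcript 3′ ends and held 4837096 to 10141155 reads in genes. A gene with no read could have up to 3 counts, or 0.305 to 0.622 CPM depending on the library, a limit that covers counting error only. KDM1A was at 101 to 110 CPM in insR GSK-LSD1, 107 to 111 in insR DMSO, 213 to 219 in WT GSK-LSD1 and 238 to 290 in WT DMSO. The leukocyte gene PTPRC (359 to 989 CPM) and the erythroid and megakaryocyte genes GATA1 (39.9 to 80.2 CPM) and ITGA2B (660 to 1295 CPM) were present in every library. Their levels were not constant. PTPRC was at 894 to 989 CPM in WT GSK-LSD1 and 419 to 447 in WT DMSO. GATA1 was at 39.9 to 52.9 CPM in WT GSK-LSD1 and 68.2 to 72.7 in WT DMSO. The neutrophil enzyme gene MPO was at 0.916 CPM or less. Reads outside genes made up 18.4% to 19.5% of uniquely aligned reads in WT GSK-LSD1 and 16.3% to 16.7% in WT DMSO. In bulk samples, fewer cells of a type and less RNA per cell cannot be told apart.

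Of the 39 genes, 37 entered the tests. The protease gene LGMN had 5 reads over all libraries and the mannosidase gene MAN2B1 had 62, too few to be tested. Over the 39 genes, summed levels were 4600 to 4779 CPM in insR GSK-LSD1 and 4673 to 4841 in insR DMSO. They were 5216 to 5689 CPM in WT GSK-LSD1 and 4009 to 4043 in WT DMSO. Treated WT libraries therefore held the highest sums and WT DMSO libraries the lowest, with the insR libraries between them. PSAP and CD63 were the largest parts of these sums. They averaged 1409 and 1349 CPM in WT GSK-LSD1, against 860 and 1080 CPM in WT DMSO, so the higher sums in treated WT libraries mainly follow these genes. In insR DMSO they averaged 971 and 1176 CPM, and most of the difference in sum from WT DMSO lay in other genes.

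**Figure D1:**
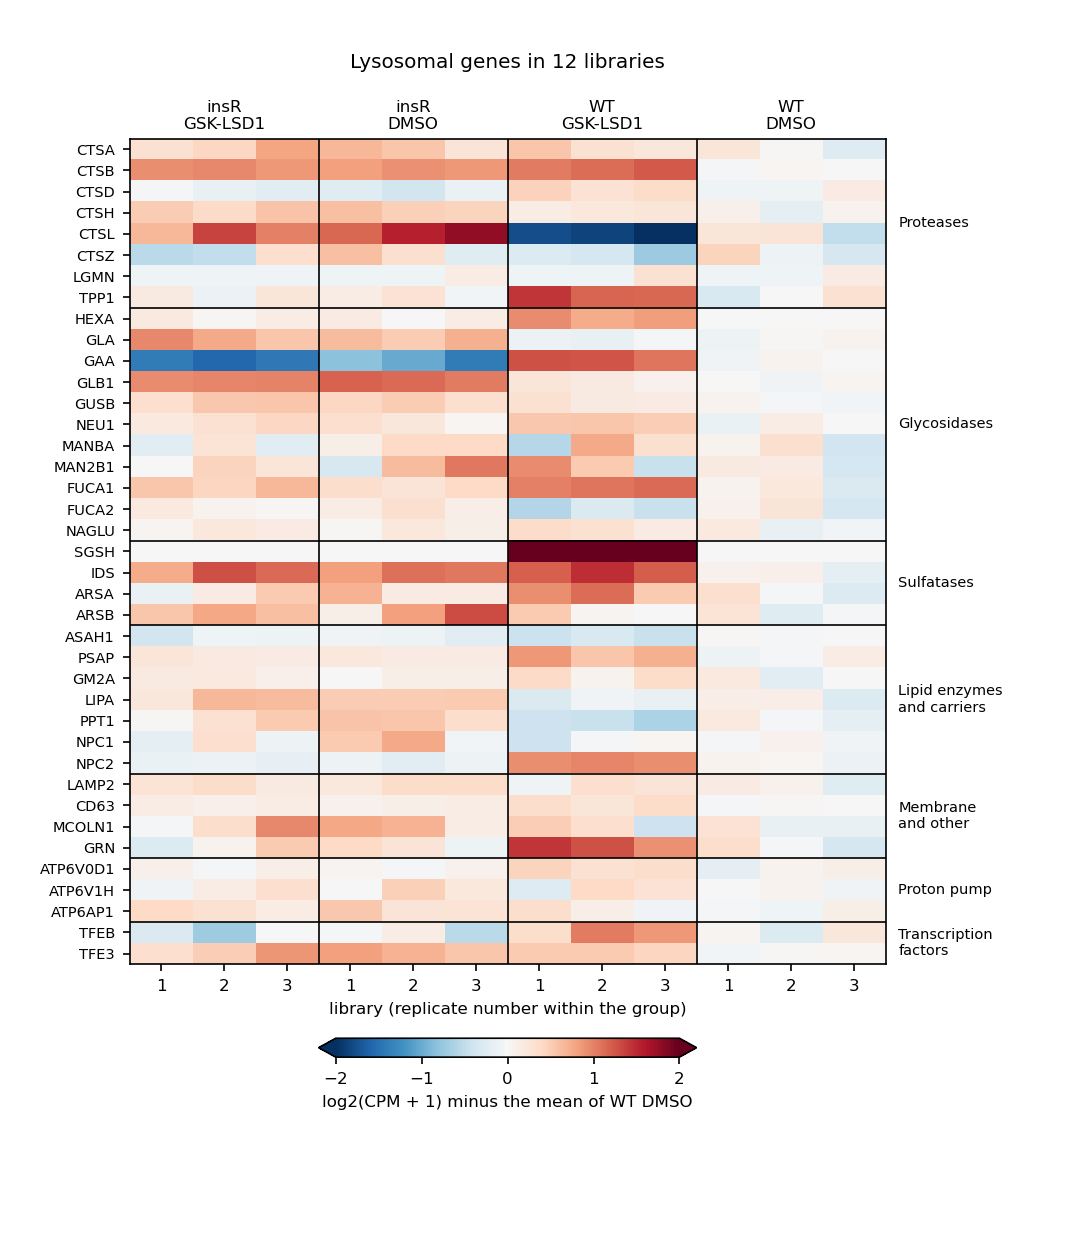
Levels of the 39 genes in each library, as log2(CPM + 1) minus the mean of the 3 WT DMSO libraries. Rows are genes grouped by role, columns are libraries, and red and blue mark levels above and below WT DMSO, with colours saturating at 2. SGSH is red in the 3 treated WT libraries and at 0 elsewhere, while CTSL is blue there and red in the insR libraries.

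The first comparison asked which lysosomal genes changed under GSK-LSD1 in WT cells. SGSH passed the filter on low counts only through the treated WT libraries and is described apart from the counts. Of the other 36 genes tested, 16 were higher and 4 lower at an edgeR adjusted p below 0.05, while 45.2% of all 12864 genes tested were called, 22.7% higher and 22.5% lower. Called higher were 3 of 7 proteases tested, 4 of 10 glycosidases and 2 of 7 lipid genes. They were joined by 2 of 4 membrane and other genes, 1 of 3 proton pump genes, TFEB and TFE3. Of the sulfatases other than SGSH, IDS and ARSA rose and ARSB was not called. The 4 lower genes were CTSL, FUCA2, ASAH1 and PPT1. The median log2 fold change of the 36 was 0.29, against 0.01 over all genes tested. The libraries of WT GSK-LSD1 and WT DMSO did not overlap for 22 of the 36 genes (61.1%), against 51.9% of all genes tested, so a lack of overlap was common in this comparison. Marker genes of other cell types moved in the same libraries. The 20 monocyte and macrophage markers summed to 301 to 330 CPM in WT GSK-LSD1 and 121 to 148 in WT DMSO, and 4 of the 6 tested rose. Those that rose were VCAN, ITGAM, LYZ and ITGAX, with log2 fold changes of 4.05, 1.80, 0.62 and 1.11. VCAN averaged 88.8 CPM in WT GSK-LSD1 and 5.26 in WT DMSO, and ITGAM 66.9 and 19.3 CPM. The listed markers MPEG1, CD163, MRC1, FCN1 and S100A8 had no read in these groups, CD14 reached 1.51 CPM and CSF1R 2.08 CPM. The 15 erythroid markers summed to 1053 to 1128 CPM in WT GSK-LSD1 and 4166 to 4366 in WT DMSO, and 14 of the 15 fell. Of the 7 megakaryocyte markers tested, GP6, TUBB1, GP9 and ITGB3 fell and ITGA2B rose. The sum over the 12 listed was 1153 to 1333 CPM in WT GSK-LSD1 and 825 to 880 in WT DMSO, most of it ITGA2B, at 1075 to 1295 CPM and 689 to 779 CPM. The 8 mast cell and basophil markers summed to 1468 to 1536 CPM in WT GSK-LSD1 and 1186 to 1212 in WT DMSO, and of 5 tested 2 rose and 1 fell. The granulocyte, lymphoid, fibroblast and epithelial lists were also higher without overlap, each summing to 38.4 CPM or less in WT GSK-LSD1 and 27.2 CPM or less in WT DMSO. Mitochondrial genes took 3.97% to 4.54% of reads in genes in WT GSK-LSD1 and 2.93% to 3.55% in WT DMSO. The part of these shifts and of the reads outside genes in the results below was not tested.

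**Figure D2:**
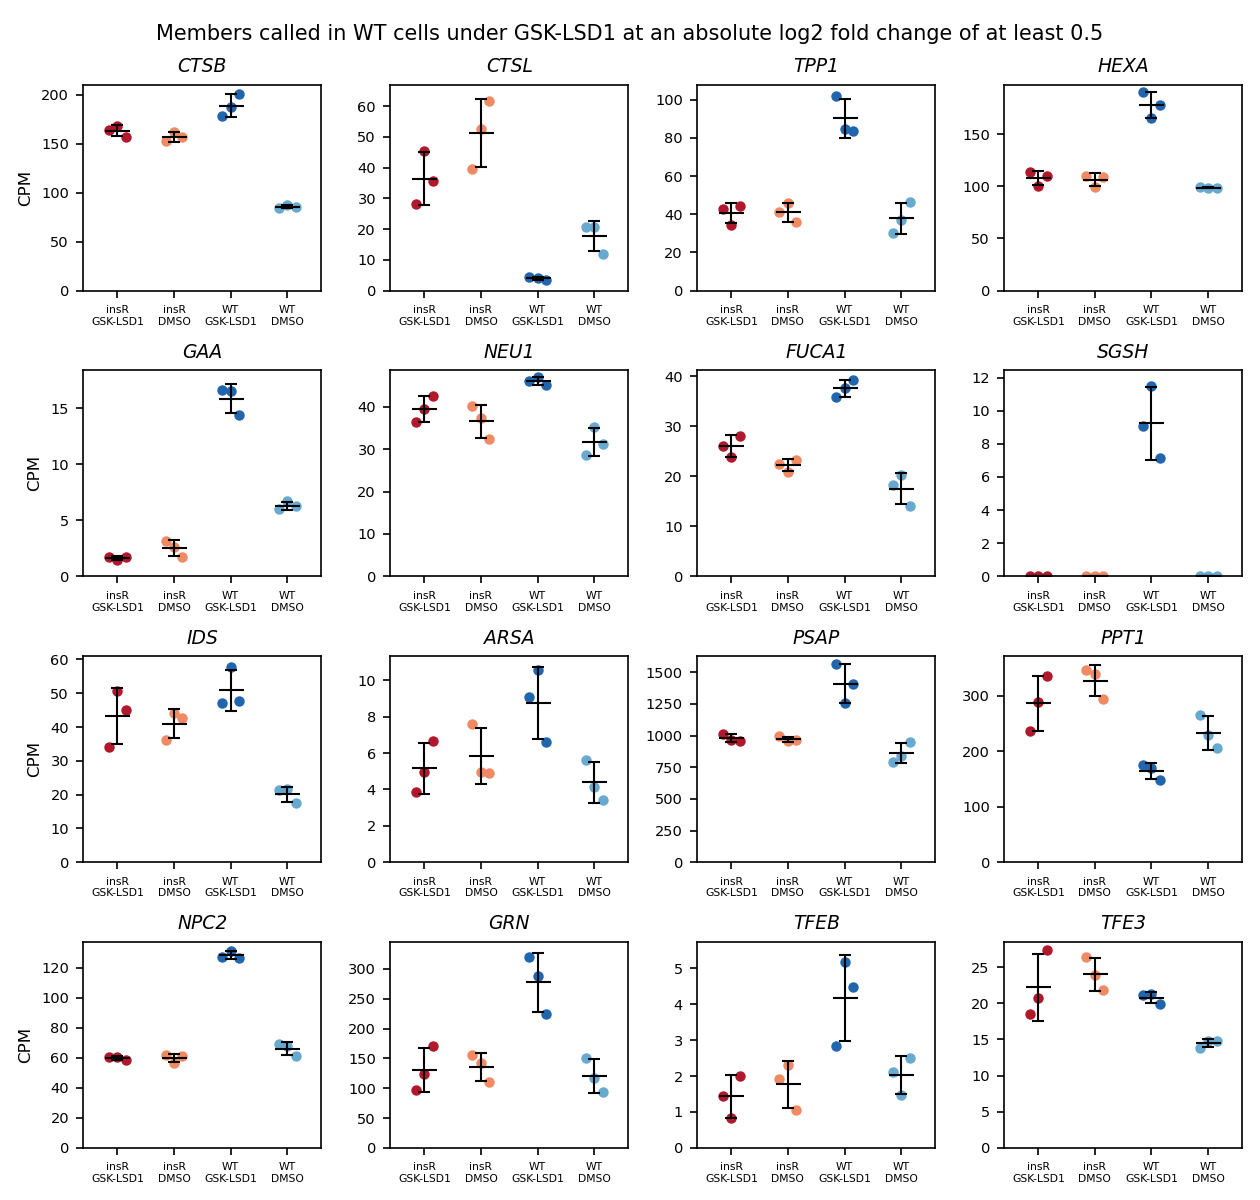
CPM in each library of the 16 genes called in WT cells under GSK-LSD1 at an absolute log2 fold change of at least 0.5. Points are libraries, horizontal lines the mean of 3 and bars 1 SD, with linear axes starting at 0. Treated WT libraries stand apart from WT DMSO libraries in each panel, which picking genes by their calls in this comparison favours. Among all genes tested, not picked in this way, they stand apart for 51.9%. SGSH, among the panels, passed the filter on low counts only through the treated WT libraries.

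Among the proteases, CTSB and TPP1 rose and CTSL fell in treated WT cells. CTSB, a cysteine cathepsin with broad activity, had 178, 187 and 201 CPM in WT GSK-LSD1, against 84.4, 87.9 and 85.4 CPM in WT DMSO. No treated library came near the untreated ones, and the log2 fold change was 1.14 (SE 0.08, adjusted p = 2.49e-11). TPP1, a tripeptidyl peptidase lost in a neuronal ceroid lipofuscinosis, had 102, 84.9 and 83.6 CPM in WT GSK-LSD1, against 30.02, 37.0 and 46.4 CPM in WT DMSO. The groups did not overlap, with a log2 fold change of 1.25 (SE 0.14, adjusted p = 1.72e-07). CTSL, an endopeptidase that also cleaves proteins outside the lysosome, had 4.35, 4.03 and 3.56 CPM in WT GSK-LSD1, against 20.5, 20.8 and 11.97 CPM in WT DMSO. All 3 treated libraries were below the lowest untreated one, and CTSL fell by 2.19 on the log2 scale (SE 0.29, adjusted p = 1.5e-05). CTSB and CTSL are both cysteine cathepsins and moved in opposite directions in the same libraries.

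The aspartic protease gene CTSD also rose, averaging 309 ± 18.4 CPM in WT GSK-LSD1 and 239 ± 25.2 CPM in WT DMSO (SD, n = 3 each), a log2 fold change of 0.37 (adjusted p = 0.00111). CTSA, the carboxypeptidase that stabilises neuraminidase and β-galactosidase, had a log2 fold change of 0.35 and was not called (adjusted p = 0.0691, with 0.0162 to 0.23 over the alternatives). It was called under 6 alternatives: WT DMSO replicate 1 (0.0241) or insR GSK-LSD1 replicate 3 (0.0317) left out, upper-quartile scaling (0.0387), no filter (0.0162), a mean of at least 5 CPM (0.0457) and only the groups compared (0.0368). Its 3′ end overlaps that of PLTP on the other strand, so its counts are uncertain. CTSH, an aminopeptidase, and CTSZ, a carboxypeptidase, had log2 fold changes of 0.21 and -0.50 and were not called (adjusted p = 0.1246 and 0.256).

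Glycosidases remove sugars from glycolipids, glycoproteins and glycogen. HEXA, the α subunit of β-hexosaminidase, had 190, 165 and 178 CPM in WT GSK-LSD1, against 99.4, 98.6 and 98.1 CPM in WT DMSO. The groups lay far apart relative to their spread, with a log2 fold change of 0.85 (SE 0.08, adjusted p = 1.06e-08). GAA, the acid α-glucosidase that degrades lysosomal glycogen and is lacking in Pompe disease, had 16.6, 16.5 and 14.4 CPM in WT GSK-LSD1, against 5.97, 6.70 and 6.25 CPM in WT DMSO. Each treated library was above each untreated one, and the log2 fold change was 1.31 (SE 0.20, adjusted p = 1.23e-05). GAA did not depend on the treated group to pass the filter on low counts. FUCA1, an α-fucosidase, had 35.9, 37.6 and 39.2 CPM in WT GSK-LSD1, against 18.3, 20.4 and 14.1 CPM in WT DMSO. No overlap was seen, and the log2 fold change was 1.09 (SE 0.13, adjusted p = 4.75e-07). NEU1, the lysosomal sialidase, had 46.1, 47.0 and 45.0 CPM in WT GSK-LSD1, against 28.6, 35.2 and 31.3 CPM in WT DMSO. Its groups were separate as well, with a log2 fold change of 0.53 (SE 0.12, adjusted p = 0.000548).

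FUCA2, a second α-fucosidase gene, went the other way from FUCA1, averaging 25.9 ± 2.78 CPM in WT GSK-LSD1 and 36.2 ± 7.75 CPM in WT DMSO (SD, n = 3 each). The groups overlapped, and the call (log2 fold change -0.49, adjusted p = 0.0056) was lost without WT DMSO replicate 2 (0.0663), with 0.000214 to 0.0663 over the alternatives. The remaining glycosidase genes GLA, GLB1, GUSB, MANBA and NAGLU had log2 fold changes of -0.10 to 0.29 and were not called. GUSB came nearest (0.21, adjusted p = 0.0511) and was called under upper-quartile scaling and with a mean of at least 5 CPM, as was GLB1, and MANBA was called without WT GSK-LSD1 replicate 1 (0.0447, with 0.0447 to 0.884 over the alternatives).

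Sulfatases remove sulfate groups from glycosaminoglycans and sulfatides. SGSH, the heparan N-sulfatase lacking in Sanfilippo syndrome type A, had 9.08, 11.5 and 7.13 CPM in WT GSK-LSD1 and no read in any of the other 9 libraries. Its 178 counts against 0 counts in WT DMSO made it at least 54.8-fold higher, with 3 counts over the WT DMSO group as the floor. No p is given, since the filter let SGSH in only through the group where it was read. Its 3′ end overlaps CARD14 on the other strand, which had 2 reads over all libraries. IDS, the iduronate sulfatase lacking in Hunter syndrome, had 47.1, 57.8 and 47.6 CPM in WT GSK-LSD1, against 21.2, 21.6 and 17.5 CPM in WT DMSO. The lowest treated library was above the highest untreated one, with a log2 fold change of 1.33 (SE 0.14, adjusted p = 5.59e-08). IDS has a partial pseudogene copy nearby, so some of its reads may be uncertain. ARSA, the arylsulfatase that degrades sulfatide, had 9.08, 10.6 and 6.62 CPM in WT GSK-LSD1, against 5.62, 4.15 and 3.39 CPM in WT DMSO. These groups were separated by about 1 CPM, and the log2 fold change was 0.96 (SE 0.28, adjusted p = 0.00617). ARSB, which acts on dermatan sulfate, had a log2 fold change of 0.25 and was not called (adjusted p = 0.613).

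Lipid genes split between directions. PSAP, the precursor of the saposins that help enzymes reach their sphingolipid substrates, had 1565, 1259 and 1404 CPM in WT GSK-LSD1, against 795, 837 and 947 CPM in WT DMSO. The groups did not overlap, with a log2 fold change of 0.71 (SE 0.08, adjusted p = 2.26e-07). NPC2, which hands cholesterol to the transporter NPC1 for export, had 127, 131 and 127 CPM in WT GSK-LSD1, against 69.5, 67.8 and 61.1 CPM in WT DMSO. Its treated libraries were close together and far above the untreated ones, with a log2 fold change of 0.95 (SE 0.09, adjusted p = 2.31e-09). PPT1, which removes palmitate from proteins, had 175, 169 and 149 CPM in WT GSK-LSD1, against 266, 229 and 205 CPM in WT DMSO. It fell by 0.51 on the log2 scale without overlap (SE 0.12, adjusted p = 0.00189), and its 3′ end overlaps CAP1 on the other strand, so its counts are uncertain.

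ASAH1, the acid ceramidase, also fell, averaging 186 ± 9.74 CPM in WT GSK-LSD1 and 245 ± 3.88 CPM in WT DMSO (SD, n = 3 each), a log2 fold change of -0.40 (adjusted p = 0.000368). NPC1 had a log2 fold change of -0.12, LIPA, the acid lipase, -0.20, and GM2A, the activator of ganglioside breakdown, 0.30, and none was called (adjusted p = 0.705, 0.338 and 0.0838). GM2A was called without WT DMSO replicate 1 (0.0459) or WT GSK-LSD1 replicate 2 (0.0436), with 0.0431 to 0.388 over the alternatives. It was also called under upper-quartile scaling (0.0431) and with a mean of at least 5 CPM (0.0481). Of the paired cholesterol exporters NPC2 rose, while the interval for NPC1, -0.61 to 0.37, allowed changes in either direction. NPC1 overlaps RMC1 at its 3′ end on the other strand and its counts are uncertain.

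GRN encodes progranulin, a secreted protein that is cleaved to granulins in lysosomes. It had 321, 288 and 224 CPM in WT GSK-LSD1, against 151, 117 and 93.6 CPM in WT DMSO. The groups did not overlap although each was spread, and the log2 fold change was 1.20 (SE 0.25, adjusted p = 0.00432). The tetraspanin gene CD63 rose slightly, averaging 1349 ± 64.0 CPM in WT GSK-LSD1 and 1080 ± 19.9 CPM in WT DMSO (SD, n = 3 each), a log2 fold change of 0.32 (adjusted p = 0.000591). LAMP2, a main glycoprotein of the lysosomal membrane, and MCOLN1, its calcium channel, had log2 fold changes of 0.17 and 0.14 and were not called (adjusted p = 0.196 and 0.757). LAMP2 was called without WT GSK-LSD1 replicate 1 (0.026, with 0.026 to 0.67 over the alternatives). MCOLN1 overlaps PNPLA6 at its 3′ end on the same strand, so its counts are uncertain.

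Of the 3 proton pump genes, ATP6V0D1, a subunit of the membrane sector, averaged 43.6 ± 2.25 CPM in WT GSK-LSD1 and 33.7 ± 3.68 CPM in WT DMSO (SD, n = 3 each). Its log2 fold change was 0.37 (adjusted p = 0.00852, with 0.00368 to 0.0788 over the alternatives), and the call was lost without WT DMSO replicate 1 (0.0788). ATP6V1H, a regulatory subunit, and ATP6AP1, an accessory protein, had log2 fold changes of 0.19 and 0.14 and were not called (adjusted p = 0.447 and 0.271).

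Both transcription factor genes were higher in treated WT cells. TFE3 had 21.2, 21.3 and 19.9 CPM in WT GSK-LSD1, against 13.9, 14.7 and 14.8 CPM in WT DMSO. Each group was tight and they did not overlap, with a log2 fold change of 0.51 (SE 0.15, adjusted p = 0.00846). TFEB had 2.84, 5.18 and 4.48 CPM in WT GSK-LSD1, against 2.11, 1.47 and 2.501 CPM in WT DMSO. These levels rest on few reads, 188 over all 12 libraries, and the lowest treated library lay just above the highest untreated one. The log2 fold change was 1.07 (SE 0.37, adjusted p = 0.0204, with 0.0105 to 0.114 over the alternatives). The TFEB call was lost without WT DMSO replicate 2 (0.114), without WT GSK-LSD1 replicate 2 (0.0799) and without WT GSK-LSD1 replicate 3 (0.0756), and in limma-trend with a pseudocount of 1 (0.0534). Transcript levels say nothing of where the proteins are in the cell, which is how their activity is mainly controlled.

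The second comparison asked which of these genes changed under the same dose in insR cells. Of the 36 genes other than SGSH, edgeR called 0, and DESeq2, limma-voom and limma-trend also called 0. Of all genes tested edgeR called 0.505%, 0.241% higher and 0.264% lower. At an unadjusted p below 0.05 edgeR found CTSL and NPC1, 2 of 37 with SGSH counted (5.41%), against 7.74% of all genes tested. CTSL had 28.0, 45.4 and 35.8 CPM in insR GSK-LSD1, against 39.4, 52.6 and 61.5 CPM in insR DMSO. These groups overlapped, with a log2 fold change of -0.49 (SE 0.20, adjusted p = 0.527, the smallest in the list). Over the 36 genes other than SGSH the median log2 fold change was -0.03, and values ran from -0.65 for GAA to 0.23 for FUCA1. SGSH had no read in either insR group. The 15 erythroid markers summed to 5852 to 6276 CPM in insR GSK-LSD1 and 6886 to 7517 in insR DMSO, with 2 called lower. These were HBA2 (log2 fold change -0.78, adjusted p = 0.00197) and HBA1 (-0.54, adjusted p = 0.00972). The 20 monocyte and macrophage markers summed to 166.6 to 183.5 CPM in insR GSK-LSD1 and 145 to 151 in insR DMSO. Of 6 tested, ITGAM was called higher (0.82, adjusted p = 0.00425). The part of these shifts was not tested.

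For several genes that rose in WT cells, the insR data bounded the change tightly. HEXA had 114, 101 and 110 CPM in insR GSK-LSD1, against 110, 99.1 and 109 CPM in insR DMSO. Its libraries were mixed, and the 95% interval of the log2 fold change was -0.15 to 0.20. NPC2 had 60.4, 60.6 and 58.5 CPM in insR GSK-LSD1, against 61.6, 56.6 and 61.5 CPM in insR DMSO, with an interval of -0.18 to 0.18. CTSB had 164, 168 and 157 CPM in insR GSK-LSD1, against 152, 162 and 157 CPM in insR DMSO, with an interval of -0.11 to 0.21. These intervals did not reach the estimates in WT cells, 0.85, 0.95 and 1.14. Others were less certain. TFEB had 1.45, 0.83 and 2.01 CPM in insR GSK-LSD1, against 1.93, 2.31 and 1.05 CPM in insR DMSO, with an interval of -1.18 to 0.62. GRN had 97.3, 124 and 170 CPM in insR GSK-LSD1, against 155, 142 and 110 CPM in insR DMSO, with an interval of -0.64 to 0.52.

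**Figure D3:**
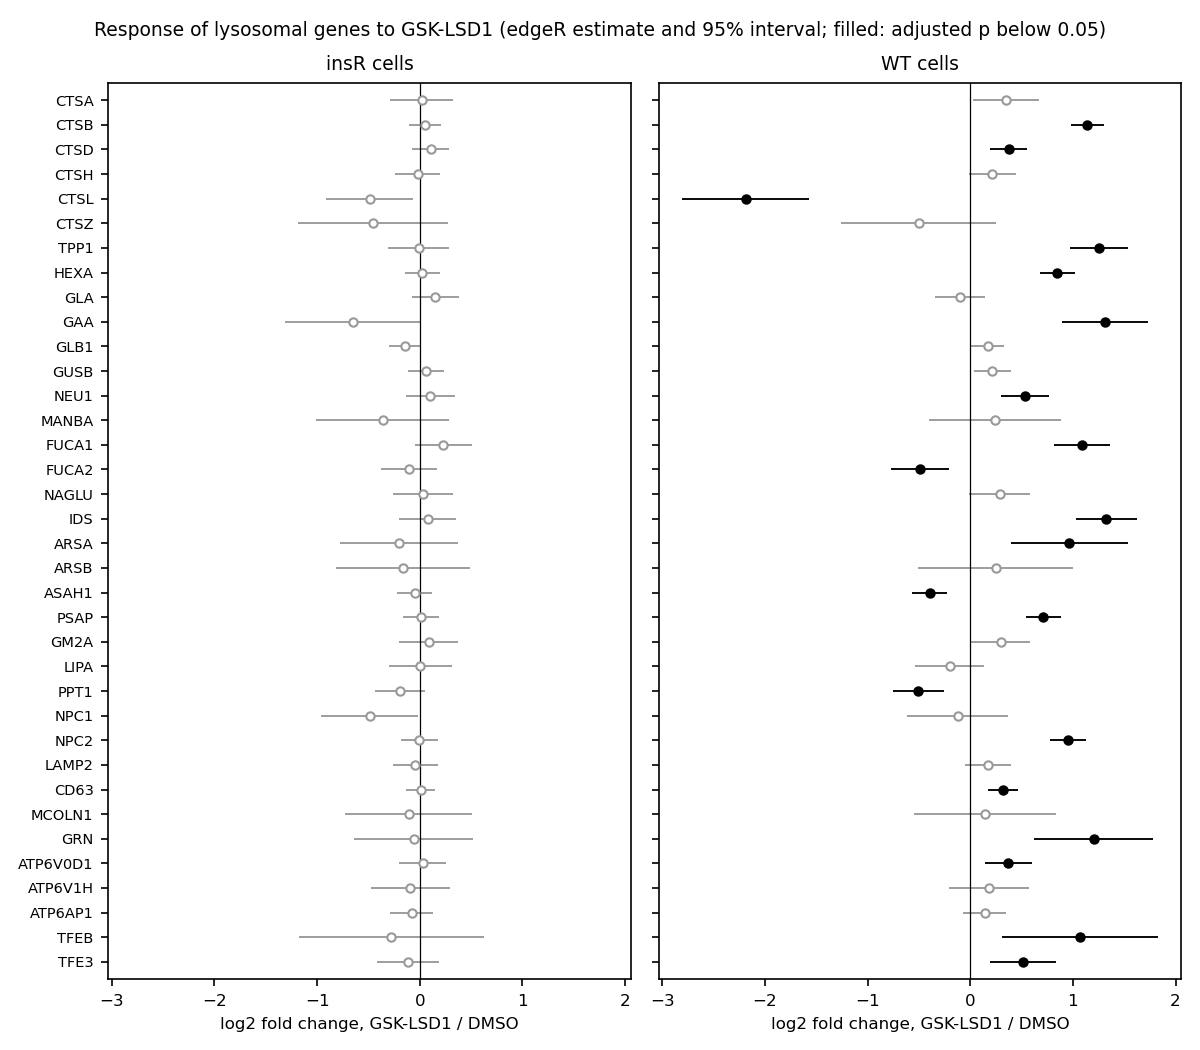
Log2 fold change of GSK-LSD1 against DMSO for 36 genes in insR cells (left) and WT cells (right), with SGSH left out because a group has no read. Points are edgeR estimates and lines 95% intervals, and filled points have an adjusted p below 0.05. In insR cells no point is filled and estimates lie from -0.65 to 0.23, while WT cells have 16 filled points above 0 and 4 below.

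A test of the difference between the responses compared insR with WT cells directly. Of the 36 genes other than SGSH, 15 were called, 2 with a more positive response in insR cells and 13 with a more negative one. Of all genes tested 25.1% were called, 13.3% more positive and 11.8% more negative. The median difference over the 36 genes other than SGSH was -0.32, against -0.00 over all genes tested. The differences in response (insR minus WT, log2) were -1.96 for GAA (SE 0.38, adjusted p = 0.000474), -1.26 for TPP1 (adjusted p = 6.41e-05), -1.25 for IDS (adjusted p = 4.58e-05) and -1.09 for CTSB (adjusted p = 8.96e-08). They were -0.96 for NPC2, -0.86 for FUCA1, -0.82 for HEXA and -0.70 for PSAP, with adjusted p-values of 3.11e-06 to 0.00169. CTSL had a difference of 1.70 (SE 0.36, adjusted p = 0.0024). These 9 genes were called under every alternative run.

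The other 6 of the 15 calls were not as firm. ARSA (difference -1.17, adjusted p = 0.0309) was lost on leaving out any of 6 libraries, which were WT DMSO replicates 2 and 3, WT GSK-LSD1 replicate 2, insR DMSO replicate 1 and insR GSK-LSD1 replicates 1 and 2 (0.0568 to 0.137, with 0.0172 to 0.137 over the alternatives). ASAH1 (0.35, adjusted p = 0.0307) was lost without WT DMSO replicate 1, without WT GSK-LSD1 or insR DMSO replicate 3, and without either of insR GSK-LSD1 replicates 2 and 3 (0.0555 to 0.0871), and under upper-quartile scaling (0.0582), with 0.00913 to 0.0871 over the alternatives. CD63 (-0.31, adjusted p = 0.0223) was lost on leaving out any of 4 libraries, which were WT DMSO replicate 1, WT GSK-LSD1 replicate 3 and the replicates numbered 2 of both insR groups (0.0507 to 0.063, with 0.00376 to 0.0778 over the alternatives). GRN (-1.26, adjusted p = 0.0328) was lost on leaving out any of 8 libraries (0.05 to 0.0783), all but WT DMSO replicate 1 and the replicates numbered 3 of the other groups, and with a replicate block (0.0625), with 0.00405 to 0.0823 over the alternatives. TFE3 (-0.63, adjusted p = 0.031) was lost on leaving out any of 7 libraries, which were WT GSK-LSD1 replicate 2 and replicates 1 and 2 of the other groups (0.0533 to 0.094, with 0.00681 to 0.094 over the alternatives). GLB1 (-0.31, adjusted p = 0.0376) was lost on leaving out any library except WT DMSO, WT GSK-LSD1 and insR DMSO replicates 3 (0.0637 to 0.112, with 0.0173 to 0.165 over the alternatives). Without a filter on low counts, GLB1, CD63, GRN and TFE3 were also lost.

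For TFEB the difference in response was -1.35 (95% interval -2.53 to -0.17), and it was not called (adjusted p = 0.0871, with 0.0548 to 0.2 over the alternatives). NEU1 (-0.43, adjusted p = 0.0552) was called without WT DMSO replicate 2 (0.0402) or insR DMSO replicate 3 (0.0328), with 0.0328 to 0.168 over the alternatives. It was also called under upper-quartile scaling (0.038) and with a mean of at least 5 CPM (0.0337). CTSD (alternatives 0.0292 to 0.286) and FUCA2 (alternatives 0.0235 to 0.424) were called without WT DMSO replicate 3, each at its lowest value. MANBA (alternatives 0.0245 to 0.557) was called without WT GSK-LSD1 replicate 1 and PPT1 (alternatives 0.0338 to 0.374) without insR GSK-LSD1 replicate 1, again at the lowest value. For SGSH both insR groups were at 0 counts, and no test of the difference is given. That a gene was called in WT and not in insR cells is not itself a test of the difference.

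The last comparison asked how the cells differed without the drug. Of the 36 genes other than SGSH, 14 were higher and 2 lower in insR DMSO than in WT DMSO. Of all genes tested 30.1% were called, 14.5% higher and 15.6% lower. Over the 36 genes other than SGSH the median log2 fold change was 0.29, against 0.01 over all genes. The libraries did not overlap for 19 of these 36 genes (52.8%), against 42.4% of all genes tested. In insR DMSO the 15 erythroid markers summed to 6886 to 7517 CPM, against 4166 to 4366 in WT DMSO, with 9 called higher and 3 lower. The 20 monocyte markers summed to 145 to 151 CPM in insR DMSO and 121 to 148 in WT DMSO, with 2 of 6 tested higher. The 8 mast cell and basophil markers summed to 1486 to 1757 CPM in insR DMSO and 1186 to 1212 in WT DMSO, with 3 of 5 tested higher and 1 lower. Reads outside genes were 17.1% in insR DMSO replicate 3 and 13.8% and 14.1% in the other insR DMSO libraries, against 16.3% to 16.7% in WT DMSO. The part of these shifts in the differences was not tested. CTSL had 39.4, 52.6 and 61.5 CPM in insR DMSO, against 20.5, 20.8 and 11.97 CPM in WT DMSO. The groups did not overlap, with a log2 fold change of 1.503 (SE 0.21, adjusted p = 4.18e-05). CTSB had 152, 162 and 157 CPM in insR DMSO, against 84.4, 87.9 and 85.4 CPM in WT DMSO. Both groups were tight, and the log2 fold change was 0.87 (SE 0.08, adjusted p = 3.4e-09).

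GLB1, the acid β-galactosidase that acts on gangliosides and keratan sulfate, differed between the cells. It had 192, 196 and 197 CPM in insR GSK-LSD1 and 225, 217 and 204 CPM in insR DMSO. In WT cells it had 117, 113 and 105 CPM with GSK-LSD1 and 99.5, 94.5 and 103 CPM with DMSO. All 6 insR libraries were above all 6 WT libraries, and the log2 fold change in DMSO was 1.13 (SE 0.08, adjusted p = 3.79e-11). IDS had 36.3, 44.2 and 42.5 CPM in insR DMSO, against 21.2, 21.6 and 17.5 CPM in WT DMSO. No library of one group reached the other, with a log2 fold change of 1.02 (SE 0.14, adjusted p = 4.49e-06).

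TFE3 had 26.3, 23.9 and 21.8 CPM in insR DMSO, against 13.9, 14.7 and 14.8 CPM in WT DMSO. The groups did not overlap, and the log2 fold change was 0.74 (SE 0.15, adjusted p = 0.000463). In insR GSK-LSD1 it had 18.5, 20.7 and 27.4 CPM. For TFEB no difference was called (log2 fold change -0.15, adjusted p = 0.823), with a 95% interval of -0.996 to 0.698. ARSB had 3.05, 5.61 and 8.26 CPM in insR DMSO, against 3.51, 2.14 and 2.68 CPM in WT DMSO. Its insR libraries were widely spread and overlapped the WT range, and the log2 fold change was 0.98 (SE 0.34, adjusted p = 0.0317, with 0.00285 to 0.225 over the alternatives). Leaving out replicate 3 (0.225) or 2 (0.0751) of insR DMSO, or replicate 2 (0.142) or 3 (0.0652) of WT DMSO, ended the call, as did limma-voom (0.0921) and a fit of only these groups (0.0526).

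GAA stood on the other side. It had 1.77, 1.45 and 1.70 CPM in insR GSK-LSD1. In insR DMSO it had 3.15, 2.64 and 1.76 CPM, against 5.97, 6.70 and 6.25 CPM in WT DMSO. Every insR library was below every WT library, and GAA fell by 1.28 on the log2 scale in insR DMSO relative to WT DMSO (SE 0.25, adjusted p = 0.000305). CTSD was the other lower gene, averaging 201 ± 16.5 CPM in insR DMSO and 239 ± 25.2 CPM in WT DMSO (SD, n = 3 each), a log2 fold change of -0.25 (adjusted p = 0.0322). This call was lost without WT DMSO replicate 3 (0.214), insR DMSO replicate 1 (0.0663) or insR DMSO replicate 2 (0.182), with 0.0219 to 0.214 over the alternatives.

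Further genes higher in insR DMSO under every alternative were GLA, the α-galactosidase lacking in Fabry disease (log2 fold change 0.63, adjusted p = 0.000113), CTSH (0.53, adjusted p = 0.000535), PPT1 (0.49, adjusted p = 0.00338) and GUSB, the β-glucuronidase (0.43, adjusted p = 0.000479). LIPA (0.52, adjusted p = 0.0124) was lost without WT DMSO replicate 3 (0.0771), with 0.00872 to 0.0771 over the alternatives. CTSA (0.50, adjusted p = 0.018) was lost without WT DMSO replicate 3 (0.0629), insR DMSO replicate 1 (0.0836) or insR DMSO replicate 2 (0.0589), with 5.19e-05 to 0.0836 over the alternatives. LAMP2 (0.30, adjusted p = 0.035) was lost without WT DMSO replicate 3 (0.18), insR DMSO replicate 2 (0.117) or insR DMSO replicate 3 (0.0993), with 0.00771 to 0.18 over the alternatives. ATP6AP1 (0.36, adjusted p = 0.00771) was lost without WT DMSO replicate 2 (0.054) or insR DMSO replicate 1 (0.0656), with 0.000414 to 0.0656 over the alternatives. FUCA1 (0.33, adjusted p = 0.077), PSAP (0.18, adjusted p = 0.117) and NPC1 (0.50, adjusted p = 0.1) were not called. FUCA1 was called without WT DMSO replicate 2 (0.0342, alternatives up to 0.342), PSAP without WT DMSO replicate 3 (0.0281, alternatives up to 0.397) and NPC1 without insR DMSO replicate 3 (0.0227, alternatives up to 0.388).

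**Figure D4:**
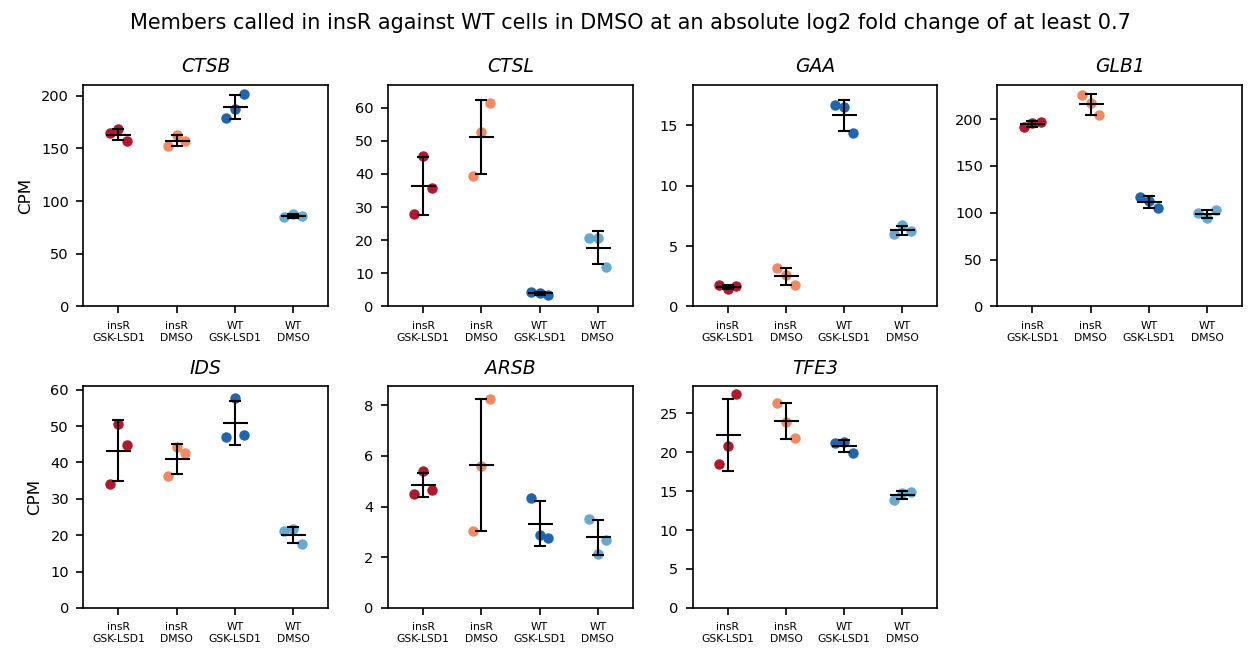
CPM in each library of the 7 genes called in insR against WT cells in DMSO at an absolute log2 fold change of at least 0.7. Points are libraries, horizontal lines the mean of 3 and bars 1 SD, with linear axes starting at 0. GLB1 is higher and GAA lower in all 6 insR libraries than in all 6 WT libraries, and CTSB in insR libraries lies between the WT DMSO and the treated WT levels.

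**Figure D5:**
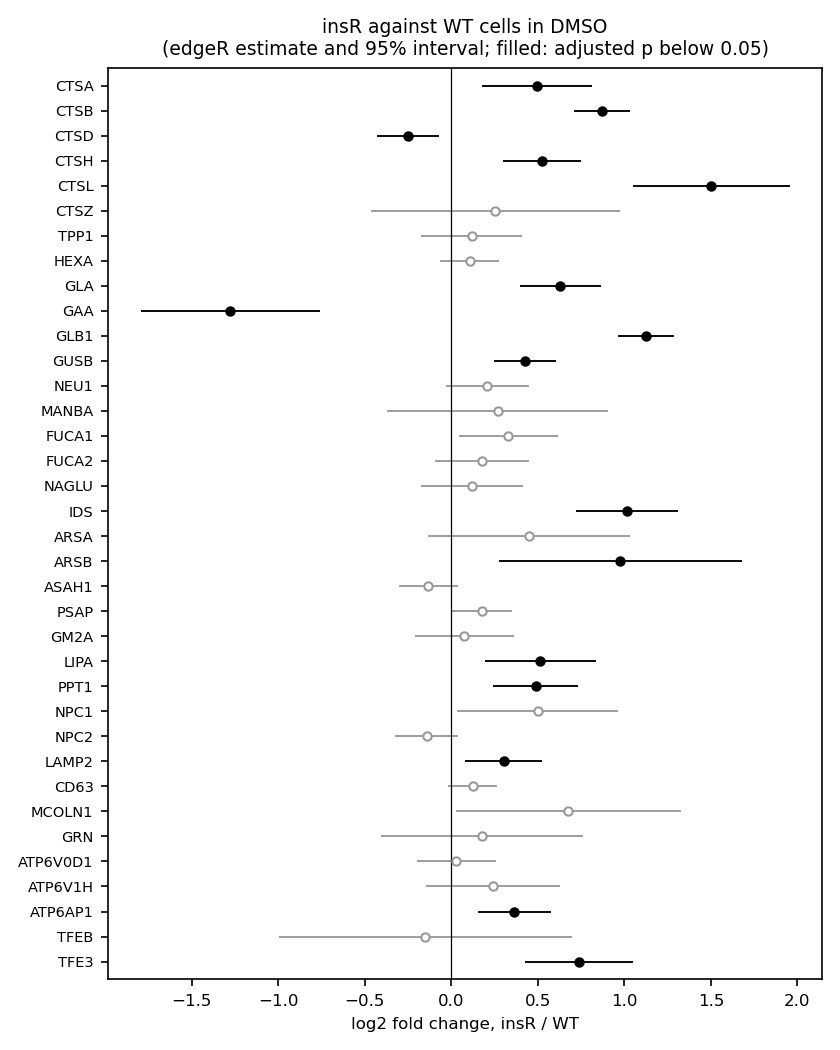
Log2 fold change of insR against WT cells in DMSO for 36 genes, with SGSH left out because both groups have no read. Points are edgeR estimates and lines 95% intervals, and filled points have an adjusted p below 0.05. Of the filled points 14 lie above 0, up to 1.503 for CTSL, and GAA at -1.28 and CTSD at -0.25 lie below.

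The drug comparison in WT cells and the comparison of insR with WT cells share the 3 WT DMSO libraries, so the values are given side by side without a measure of their relation. CTSB had log2 fold changes of 1.14 with the drug in WT cells and 0.87 in insR against WT. For IDS these were 1.33 and 1.02, and for TFE3 0.51 and 0.74, and these 3 genes were called higher in both. CTSL had -2.19 and 1.503 and PPT1 -0.51 and 0.49, called lower in the first and higher in the second. GAA had 1.31 and -1.28 and CTSD 0.37 and -0.25, called the other way round. TPP1, HEXA, NEU1, FUCA1, ARSA, PSAP, NPC2, CD63, GRN, ATP6V0D1 and TFEB were called higher with the drug and not between the cells. SGSH is left out here, since it had no read in either DMSO group. FUCA2 and ASAH1 were lower with the drug and not called between the cells. Another 9 were called higher in insR cells and not with the drug, among them GLB1, GLA and CTSH. The remaining 7 tested genes, CTSZ, MANBA, NAGLU, GM2A, NPC1, MCOLN1 and ATP6V1H, were called in neither.

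Other lysosomal genes, from lists drawn up with earlier results of these data known, were read in the same fit. In WT cells given GSK-LSD1, the counts of these lists stand against 22.7% of all genes tested called higher and 22.5% lower. Of 31 other hydrolase genes tested, 17 rose and 2 fell there, with a median log2 fold change of 0.55. RNASET2, a lysosomal ribonuclease, averaged 115 ± 10.6 CPM in WT GSK-LSD1 and 54.5 ± 4.33 CPM in WT DMSO (SD, n = 3 each), a log2 fold change of 1.07 (adjusted p = 7.85e-09). CTSV, a cysteine cathepsin closely related to CTSL, averaged 35.2 ± 2.87 CPM in WT GSK-LSD1 and 8.82 ± 1.27 CPM in WT DMSO (SD, n = 3 each), and its log2 fold change was 1.99 (adjusted p = 1.08e-08). The directions of CTSV and CTSL were thus opposite in treated WT cells. CTSS, a cathepsin of antigen processing, had a log2 fold change of 0.78 (adjusted p = 1.49e-07). In insR cells 0 of the 31 were called, against 0.505% of all genes tested. In the difference between the responses 2 of the 31 were more positive and 14 more negative in insR cells, against 13.3% and 11.8% of all genes tested. Between insR and WT cells in DMSO 6 were higher and 5 lower, against 14.5% and 15.6%.

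Of 30 other membrane genes tested, 11 rose and 4 fell with the drug in WT cells (median 0.30). SIDT2, a lysosomal nucleic acid transporter, averaged 86.6 ± 12.3 CPM in WT GSK-LSD1 and 23.9 ± 2.12 CPM in WT DMSO (SD, n = 3 each), a log2 fold change of 1.85 (adjusted p = 6.39e-12). TPCN1, a cation channel, and LAPTM4B, a multispanning membrane protein, had log2 fold changes of 1.23 and 0.77 (adjusted p = 1.14e-07 and 2.51e-07). In insR cells 1 of the 30, the peptide transporter ABCB9, was called lower (log2 fold change -0.48, adjusted p = 0.0407). Of 14 other proton pump genes 4 rose and 3 fell in WT cells (median 0.07). ATP6V1B2 and ATP6V1E1 had log2 fold changes of 0.38 and 0.23 (adjusted p = 0.00584 and 0.019), and ATP6V0A1 had -0.32 (adjusted p = 0.0207).

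Genes that deliver enzymes to lysosomes or control their making were called in both directions, as were all genes tested (22.7% higher, 22.5% lower). Of 21 sorting genes tested 4 rose and 4 fell (median -0.07). SUMF1, which activates sulfatases by modifying their active site, rose by 1.04 on the log2 scale (adjusted p = 5.76e-06) and SORT1, a sorting receptor, by 0.59 (adjusted p = 4.71e-05), while CLN6, an endoplasmic reticulum protein, had -0.76 (adjusted p = 1.56e-06). Of 25 TFEB and mTORC1 regulators 6 rose and 5 fell (median 0.06). RRAGD, a GTPase of mTORC1 signalling at the lysosome and a known TFEB target, averaged 37.8 ± 2.98 CPM in WT GSK-LSD1 and 77.2 ± 1.29 CPM in WT DMSO (SD, n = 3 each), a log2 fold change of -1.02 (adjusted p = 6.4e-09). PPP3R1, the calcineurin subunit, fell with -0.48 (adjusted p = 1.75e-05) and ZKSCAN3, a repressor of autophagy genes, rose with 0.94 (adjusted p = 0.000182).

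Of 26 autophagy genes 8 rose and 3 fell in treated WT cells (median 0.16). CALCOCO2, a cargo receptor, ULK1, the initiating kinase, and RB1CC1, its partner, had log2 fold changes of 0.91, 0.97 and 0.42 (adjusted p = 2.76e-09, 4.74e-06 and 8.07e-05). Of 23 vesicle fusion genes 5 rose and 3 fell (median 0.07). The syntaxin gene STX7 and BORCS6, which positions lysosomes, had log2 fold changes of 0.74 and 0.57 (adjusted p = 6.36e-06 and 0.00254), and BLOC1S2 had -0.64 (adjusted p = 1.72e-05). In insR cells 0 genes of the sorting, regulator, autophagy, fusion and other pump lists were called, where 0.505% of all genes tested were.

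The palindrome shown above was set beside the calls as a description. Of the 4 genes that hold TCACGTGA, GAA and ATP6V0D1 rose with the drug in WT cells, and CTSA and MCOLN1 were not called, with a median log2 fold change of 0.36. Of 23 tested genes with a matched promoter and no TCACGTGA, 10 rose and 3 fell (median 0.25). For the core CACGTG, 5 of the 7 holders rose and 0 fell (median 0.37), against 7 higher and 3 lower of 20 tested genes without it (median 0.21). These numbers are too few to compare and the promoters of 11 genes, CTSB, SGSH and PSAP among them, were not matched. Between insR and WT cells in DMSO GAA, with 2 copies of TCACGTGA, was lower, and CTSA, with 1 copy, was higher. The CTSA call was lost on leaving out any of 3 libraries (edgeR adjusted p = 0.0589 to 0.0836). MCOLN1, with 2 copies, and ATP6V0D1, with 1, had log2 fold changes of 0.67 and 0.03 and were not called (edgeR adjusted p = 0.112 and 0.871).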

How the data were processed

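Cells were SET-2, with 12 libraries in 4 groups of 3 taken from the sample titles. A QuantSeq kit that reads from transcript 3′ ends was used, per the labels' protocols. The submitters' processing notes list bcl2fastq 2.2, STAR 2.6.0c, HTSeq 0.9.1, DESeq2 and hg19. For the annotation release and the strand setting, the entry is "not given in the sources used here", and overlapping genes are uncertain for that reason. The authors deposited raw counts, which are whole numbers of reads for each gene. The deposited normalized signal is those counts divided by 1 factor per library, per the values: multiplying back gave whole reads for 100% of values to a tolerance of 0.01, and 0 genes differed. edgeR on the recovered reads called 5816, 65, 3228 and 3877 genes in the 4 comparisons, as on the counts. That outcome was fixed in advance, since the recovered reads equal the counts. No 2 libraries held identical values.

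Counts were fitted in R 4.3.3 with edgeR 4.0.16 and its robust quasi-likelihood test, using TMM scaling, filterByExpr (1.67 CPM in 3 libraries) and all 12 libraries in 1 fit. Benjamini-Hochberg adjustment ran over 12864 genes, and genes were called below 0.05. SEs are the absolute log2 fold change over the root of F, and 95% intervals use the fit's degrees of freedom. Entries that name no gene were left out: non-unique alignments made up 57.9% to 62.6% of each table.

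Values in every library are given for genes called with an absolute log2 fold change of at least 0.5 in the WT response or 0.7 between the cells in DMSO, for TFEB and TFE3, and, added after values were seen, for CTSL, HEXA, NPC2, CTSB, TFEB and GRN in insR cells. Up to 3 genes of lowest p were named per further list. The genes, lists and rules were chosen with earlier results of these data known. Alternatives were DESeq2 1.42.0 and its size factors, upper-quartile scaling, 2 other filters, limma-voom and limma-trend (limma 3.58.1) on log2 of the deposited signal plus 1 or 8, a replicate block, only the groups compared, a threshold of 0.01 and each library left out. The recovered reads were added after seeing the data and, being equal to the counts, could change no call. Gene order and overlaps were read from GENCODE on a newer build, and none of its coordinates is printed. Promoters are from RefSeq (GRCh38.p14). Python 3.11.15, numpy 2.4.6, pandas 2.3.3, scipy 1.17.1 and matplotlib 3.10.9 were used.
The statistical scripts were tested on simulated data with known changes.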

Additional observations from a re-analysis of the deposited data

Results flagged for a closer look

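For 15 of the 36 genes tested other than SGSH, the response to GSK-LSD1 differed between insR and WT cells in edgeR's interaction test. In insR minus WT, on the log2 scale, the difference was -1.09 for CTSB, -1.26 for TPP1, -0.82 for HEXA, -1.96 for GAA, -0.31 for GLB1, -0.86 for FUCA1, -1.25 for IDS, -1.17 for ARSA, -0.70 for PSAP, -0.96 for NPC2, -0.31 for CD63, -1.26 for GRN and -0.63 for TFE3. It was 1.70 for CTSL and 0.35 for ASAH1. Over all genes tested 25.1% differed. The calls for GLB1, ARSA, ASAH1, CD63, GRN and TFE3 were lost under at least 1 alternative, as the report gives.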

How the results depend on the processing

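Counts and medians were read only as the same or moved. Signs were not compared for genes called neither in the main edgeR fit nor in the alternative set beside it. Among the other genes, no direction reversed under any of the alternatives. Of the calls for single genes, 18 of 21 in the WT response, 9 of 15 in the difference and 10 of 16 between the cells in DMSO held under all of them, and in insR cells none of the 37 genes was called by any. These counts and the medians below include SGSH. It passed the filter on low counts only through the treated WT libraries, so its kept call in the WT response adds no support. Without it the median log2 fold change in WT cells was 0.29. The median log2 fold change in WT cells was 0.30 over 37 genes, 0.35 under upper-quartile scaling and 0.28 to 0.37 with each library left out. The 65 genes of the whole table called in insR cells became 118 without a filter, 39 in limma-trend with a pseudocount of 1, 25 at an adjusted p below 0.01 and 28 to 91 with a library left out, with 29 and 34 without insR DMSO replicates 1 and 2, and 28, 28 and 40 without insR GSK-LSD1 replicates 1, 2 and 3. For the difference in response, the 2 genes more positive became 1 under upper-quartile scaling, 1 at 0.01 and 1 to 3 with a library left out, being 1 without WT DMSO replicate 1, WT GSK-LSD1 replicate 3, insR DMSO replicate 3 and insR GSK-LSD1 replicates 2 and 3. The 13 more negative became 8 at 0.01 and 8 to 14 with a library left out, being 8 without insR GSK-LSD1 replicate 2, the 3228 genes of all tested became 1896 at 0.01 and 2684 to 3199 with a library left out, and the median of -0.33 ranged from -0.38 to -0.30. The 2 lower between the cells in DMSO became 1 at 0.01 and 1 to 2 with a library left out, being 1 without WT DMSO replicate 3, insR DMSO replicate 1 and insR DMSO replicate 2.

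Over all genes tested, samples with the same replicate number did not deviate together (correlations of -0.20 to 0.21 between compared groups), so the numbers are not taken as pairs. Some listed genes, GRN, CTSA, PPT1, CTSZ and MCOLN1, did follow the replicate number. Their levels fell from replicate 1 to 3 in insR DMSO, WT GSK-LSD1 and WT DMSO and rose in insR GSK-LSD1. A replicate block gives each number the same shift in every group and does not take up this order. Its part in the results was not tested. With a replicate block, 5818 genes were called in the WT response, 60 in insR, 3198 for the difference and 3897 between the cells in DMSO, and GRN was the 1 listed gene whose call changed.

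Depth limits the genes of few reads: TFEB and GAA had 26 and 29 reads in all over the 3 insR GSK-LSD1 libraries. Restricting promoters to the 250 bases before the start left the shares of these genes as they were, with 0.89% and 6.49% over all genes.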

Other observations

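GAA and SGSH lie near each other on chromosome 17, and both were higher in treated WT cells. Of the genes between them, EIF4A3, an exon junction factor, had a log2 fold change of -0.76 in WT cells (edgeR adjusted p = 0.017), CARD14 had 0 counts in WT GSK-LSD1 and 1 count in WT DMSO, and the antisense gene AC087741.1 had 7 counts in WT GSK-LSD1 and 0 in WT DMSO. Beyond SGSH, SLC26A11, whose body overlaps SGSH on the other strand, had 13 counts in WT GSK-LSD1 and 0 in WT DMSO, with 0 in insR GSK-LSD1 and 3 in insR DMSO. RNF213, which follows it, had 2722 counts in WT GSK-LSD1 and 1322 in WT DMSO, a log2 fold change of 0.95 (adjusted p = 5.8e-09). These neighbours were chosen after the values of SGSH were seen. Whether the counting used strand is not known from the labels. Without strand, reads from the part where SGSH and SLC26A11 overlap cannot be assigned to either gene.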
